A study of Mus musculus with 6 samples.

Results

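Genes for the core pre-mRNA splicing machinery were examined in mouse quadriceps muscle. They were all genes of the deposited table whose symbol begins with Srsf and a number, Hnrnp, Snrp, or Sf3a or Sf3b and a number, and 49 of the 11768 listed genes met this rule. The 49 fall into 4 families, with 10 SR genes, 20 hnRNP genes, 10 Sm and U snRNP genes and 9 SF3 genes. Of 53 RefSeq protein-coding genes whose symbols match, Snrpg, Snrpn, Srsf12 and Hnrnpa1l2-ps2 are not analysed here. Total RNA was sequenced from 3 libraries labelled mDrp1HET (mouse model Drp1-KD) and 3 labelled Control f/f, all from mice on normal chow. mDrp1HET stands for heterozygous loss of Drp1, the GTPase that divides mitochondria, in muscle alone, and Control f/f for mice with the floxed gene. The title of the series ties Drp1 to the assembly of respiratory complex II and the burning of fatty acids. The labels do not spell out the promoter that drives the recombinase, though library names hold the letters mck and the p-value header reads MCK. The labels give no age and do not say that the libraries are separate animals, so p-values measure only the spread between these libraries.

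Introns are removed from pre-mRNA by the spliceosome. SR proteins carry an RNA-recognition motif and a domain rich in arginine and serine; they bind exonic enhancers and help recruit the spliceosome to nearby splice sites. The hnRNP proteins coat nascent RNA and often act in the opposite sense, silencing splice sites, so that the proportion of SR to hnRNP protein can shift the choice of exons. The U snRNPs recognise the splice sites, each with its own specific proteins and most of them built on a ring of Sm proteins. The SF3a and SF3b complexes are part of the U2 snRNP, which binds the branch site. Many SR and hnRNP genes control their own level by including a poison exon that sends the transcript to nonsense-mediated decay.

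Of the 6 columns, 2 hold a single library. For 11334 of the 11768 genes the column Control replicate 1 holds exactly 2 reads for each read of the column mDrp1HET replicate 3, a relation that any other pair of columns shows for at most 81 genes. The labels do not tell its true group, so the 4 remaining libraries, mDrp1HET replicates 1 and 2 and Control replicates 2 and 3, gave the 4-library comparison, and all 6 columns gave the labelled comparison. Values of the library in both groups are called those of the shared library. Recovered reads numbered 15782298 and 10394761 in mDrp1HET replicates 1 and 2, 28664508 and 25019293 in Control replicates 2 and 3, and 64728022 and 32372360 in the 2 shared columns. The fewest reads of any member in one of the 4 libraries was 11, for Snrpf in mDrp1HET replicate 2. Skeletal muscle markers were present in every library, with Ckm between 13.64 and 14.13 log2 CPM. Dnm1l, the gene for Drp1, had 7.30 and 6.73 log2 CPM in the mDrp1HET libraries, against 6.95 and 6.87 log2 CPM in the Control libraries and 6.69 in the shared one. The groups overlapped, and the log2 fold change was 0.11 (SE 0.23, adjusted p = 0.843 by limma with Benjamini-Hochberg adjustment). The Dnm1l value counts reads over the whole gene and need not report a deleted part. It does not separate the groups, so mDrp1HET and Control stand throughout for the libraries labelled so.

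The data show no splicing factor gene past the threshold, an adjusted p of 0.05, in either comparison. In the 4-library comparison 0 of 49 passed, where 0.187% of all genes did (0.144% higher and 0.0425% lower in mDrp1HET), and the lowest adjusted p of a member was 0.162 for Srsf10 (limma, Benjamini-Hochberg). In the labelled comparison 0 of 49 passed, where 0.0% of all genes did, and the lowest adjusted p was 0.753. Limma voom on recovered reads called 0 members in both comparisons. At an unadjusted p under 0.05 in the 4-library comparison, 7 members were higher in mDrp1HET (14.3%, against 13.3% of all genes) and 3 were lower (6.12%, against 3.26%). This split turned with the scaling. After the libraries were centred on their medians, 3 members were higher and 8 lower (9.2% and 7.59% of all genes). In the labelled comparison, 0 members were higher and 0 lower at that level, where 3.04% and 0.858% of all genes were (3.9% in either direction). In the 4-library comparison of the values as deposited, 35 of 49 members had a 95% interval lying within −1 and 1 on the log2 scale. The share of all genes with such an interval was not counted.

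The median log2 fold change was highest for SR genes and lowest for hnRNP genes, a description with no test of the difference. The median log2 fold change of all genes was 0.20 in the 4-library comparison, so values are set beside it. Log2 fold changes were above 0 for 29 of 49 members (59.2%, against 69.6% of all genes), and above the all-gene median for 18. The SR median was 0.34, the hnRNP median −0.10, the Sm and U snRNP median 0.12 and the SF3 median 0.01. After median centring, which brought the all-gene median to 0.04, the SR and hnRNP medians kept their signs at 0.17 and −0.27, while the Sm and U snRNP median became −0.05 and the SF3 median −0.16. In the labelled comparison the medians were 0.22 for SR, −0.07 for hnRNP, 0.08 for Sm and U snRNP and 0.01 for SF3 genes, beside 0.13 for all genes. Leaving out 1 library turned the sign of the hnRNP median (0.032 without mDrp1HET replicate 2) and of the Sm and U snRNP median (−0.015 without mDrp1HET replicate 1), and the SF3 median ranged between −0.13 and 0.21. No test was made over families, because members of a family were chosen with earlier results known and are not replicates.

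**Figure D1:**
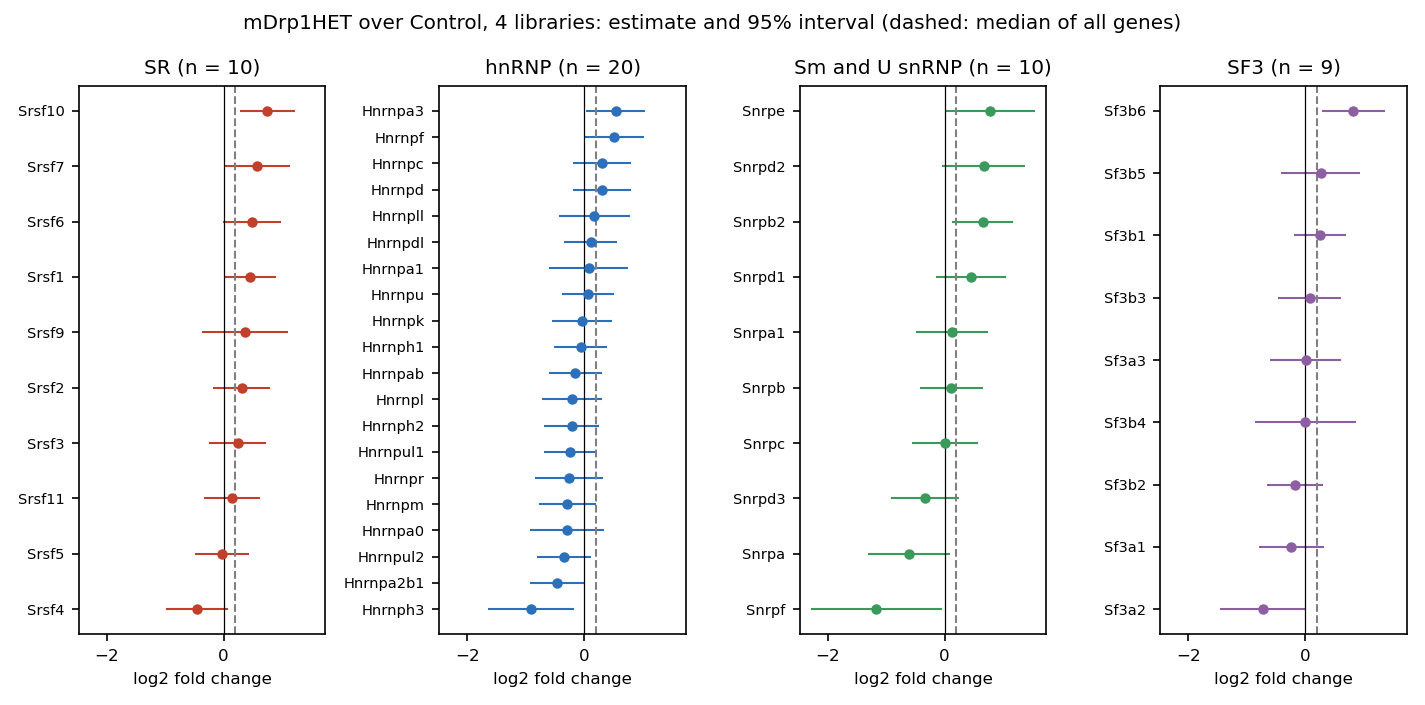
Log2 fold change of each member, mDrp1HET over Control, in the 4-library comparison (limma), with 1 panel per family. Points are estimates, bars are 95% intervals, and the dashed line is the median of all genes at 0.20; 7 of 10 SR genes lie above that line and 16 of 20 hnRNP genes below it.

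Whether the libraries of the groups overlapped was also counted, without a model. Of the 49 members, 15 had both mDrp1HET libraries above both Control libraries (30.6%, against 38.6% of all genes) and 13 had both below (26.5%, against 11.3% of all genes). By family the numbers above and below were 6 and 1 of 10 SR genes, 3 and 8 of 20 hnRNP genes, 4 and 2 of 10 Sm and U snRNP genes and 2 and 2 of 9 SF3 genes. Median centring changed both the members and the background. It gave 6 above and 2 below for SR genes, 2 above and 13 below for hnRNP genes, 4 above and 3 below for Sm and U snRNP genes and 1 above and 4 below for SF3 genes, where 28.7% and 22.3% of all genes lay above and below.

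The promoter of the member with the smallest p in each family is shown, as the 250 bases before the RefSeq start of transcription in GRCm38.p6, 5′ to 3′ on the gene's own strand. Capitals mark matches on either strand to the letters searched, which were GGGCGG for the GC box, CCGGAAG for the ETS motif, CCAAT for the CCAAT box, TATAAA for the TATA box and TGACGTCA for the CRE. The 4 windows are chr4:135855821-135856070 (plus strand) for Srsf10, chr10:63023850-63024099 (minus strand) for Hnrnph3, chr2:143062819-143063068 (plus strand) for Snrpb2 and chr12:4817358-4817607 (plus strand) for Sf3b6. The RefSeq starts differ from the GENCODE positions given below for these genes. By the GENCODE positions, the Srsf10 and Hnrnph3 windows lie inside the gene, and the Snrpb2 and Sf3b6 windows run past its start.
Srsf10: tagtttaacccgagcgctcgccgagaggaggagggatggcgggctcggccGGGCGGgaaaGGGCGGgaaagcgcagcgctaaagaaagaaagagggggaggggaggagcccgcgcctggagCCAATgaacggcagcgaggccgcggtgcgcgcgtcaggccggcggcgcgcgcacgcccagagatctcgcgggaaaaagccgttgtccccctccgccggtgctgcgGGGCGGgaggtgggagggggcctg
Hnrnph3: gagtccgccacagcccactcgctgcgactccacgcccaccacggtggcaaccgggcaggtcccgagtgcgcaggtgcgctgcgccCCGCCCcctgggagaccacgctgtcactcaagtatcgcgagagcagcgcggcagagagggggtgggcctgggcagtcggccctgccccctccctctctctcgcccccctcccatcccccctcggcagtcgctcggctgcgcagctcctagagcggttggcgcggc
Snrpb2: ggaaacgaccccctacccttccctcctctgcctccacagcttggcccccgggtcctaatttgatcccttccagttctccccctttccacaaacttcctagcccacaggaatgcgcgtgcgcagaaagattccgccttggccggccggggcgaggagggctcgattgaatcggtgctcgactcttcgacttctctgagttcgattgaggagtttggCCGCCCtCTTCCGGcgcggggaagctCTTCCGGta
Sf3b6: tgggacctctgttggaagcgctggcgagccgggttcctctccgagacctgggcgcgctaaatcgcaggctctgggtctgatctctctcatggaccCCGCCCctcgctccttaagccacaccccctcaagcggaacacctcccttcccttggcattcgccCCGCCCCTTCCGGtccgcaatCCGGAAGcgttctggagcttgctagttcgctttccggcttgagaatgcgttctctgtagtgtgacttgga

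Srsf10 held 3 GC boxes and 1 CCAAT, Hnrnph3 1 GC box, Snrpb2 2 ETS matches and 1 GC box, and Sf3b6 2 of each, with 1 GC box and 1 ETS match end to end. RefSeq promoters were found for 43 of the 49 members. The ETS letters occurred in 14 of the 43 (32.6%), against 14.2% of 9133 promoters of listed genes and 7.05% of 27025 promoters in the RefSeq table. By family these were 6 of 7 SF3 promoters, 4 of 10 SR promoters, 2 of 8 Sm and U snRNP promoters and 2 of 18 hnRNP promoters. The CCAAT box occurred in 19 of the 43 member promoters (44.2%), against 36.4% of the promoters of listed genes. By family these were 12 of 18 hnRNP, 3 of 10 SR, 2 of 8 Sm and U snRNP and 2 of 7 SF3 promoters. The GC box occurred in 72.1% of member promoters and 59.6% of those of listed genes, the TATA box in 11.6% and 6.69%, and the CRE in 2.33% and 2.81%. These are matches of letters, and no binding was measured.

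Among SR genes the largest difference was that of Srsf10, which encodes a splicing activator that becomes a general repressor when it is dephosphorylated (chromosome 4, 135855747 to 135869908, GRCm38, GENCODE vM21). Srsf10 had 5.86 and 5.73 log2 CPM in the mDrp1HET libraries, against 5.03 and 5.05 log2 CPM in the Control libraries, and 4.99 in the shared library. Both mDrp1HET libraries were above all others. The fold was 1.68 (log2 0.75, SE 0.22, adjusted p = 0.162, limma with Benjamini-Hochberg adjustment). With single libraries left out, its log2 fold change stayed between 0.68 and 0.82. Over all alternatives, the shared library counted in 1 group among them, it ran between 0.48 and 0.82. The adjusted p over these alternatives reached 0.970 (limma).

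Srsf1, the founding SR protein and a broad activator of exon inclusion, had 6.96 and 6.82 log2 CPM in the mDrp1HET libraries, against 6.45 and 6.44 log2 CPM in the Control libraries and 6.45 in the shared one. The groups did not overlap, and the log2 fold change was 0.45 (SE 0.20, adjusted p = 0.298, limma). Srsf7, which like Srsf3 links splicing to mRNA export, had 4.95 and 4.61 log2 CPM in the mDrp1HET libraries, against 4.37 and 4.03 log2 CPM in the Control libraries and 4.52 in the shared one (log2 fold change 0.58, SE 0.25). Srsf6, an enhancer-binding SR protein with a pair of RNA-recognition motifs, had 5.63 and 5.49 log2 CPM in the mDrp1HET libraries, against 5.22 and 4.94 log2 CPM in the Control libraries and 5.32 in the shared one (log2 fold change 0.48, SE 0.23). For Srsf7 and Srsf6 the shared library fell between the groups, and for Srsf1 it lay with Control. Srsf2, whose protein concentrates in nuclear speckles, had 5.36 and 5.18 log2 CPM in the mDrp1HET libraries, against 5.002 and 4.92 log2 CPM in the Control libraries and 5.02 in the shared one, for a log2 fold change of 0.31 (adjusted p = 0.507, SE 0.22, limma).

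Srsf4 was lower in mDrp1HET. It encodes a long SR protein closely related to those of Srsf5 and Srsf6. Srsf4 had 4.09 and 4.02 log2 CPM in the mDrp1HET libraries, against 4.60 and 4.44 log2 CPM in the Control libraries and 4.55 in the shared one. It was the single SR gene with both mDrp1HET libraries below both Control libraries, and its log2 fold change was −0.46 (SE 0.24, adjusted p = 0.359, limma). Srsf5, the most abundant SR gene per kilobase of transcript at 61.6 CPM per kb, had 6.63 and 6.40 log2 CPM in the mDrp1HET libraries, against 6.61 and 6.48 in the Control libraries and 6.83 in the shared one. Its groups overlapped and its log2 fold change was −0.03, with a 95% interval of −0.49 to 0.43. The remaining SR genes, Srsf3, Srsf9 and Srsf11, had log2 fold changes of 0.24, 0.36 and 0.14, and of these only Srsf3 had groups that did not overlap.

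**Figure D2:**
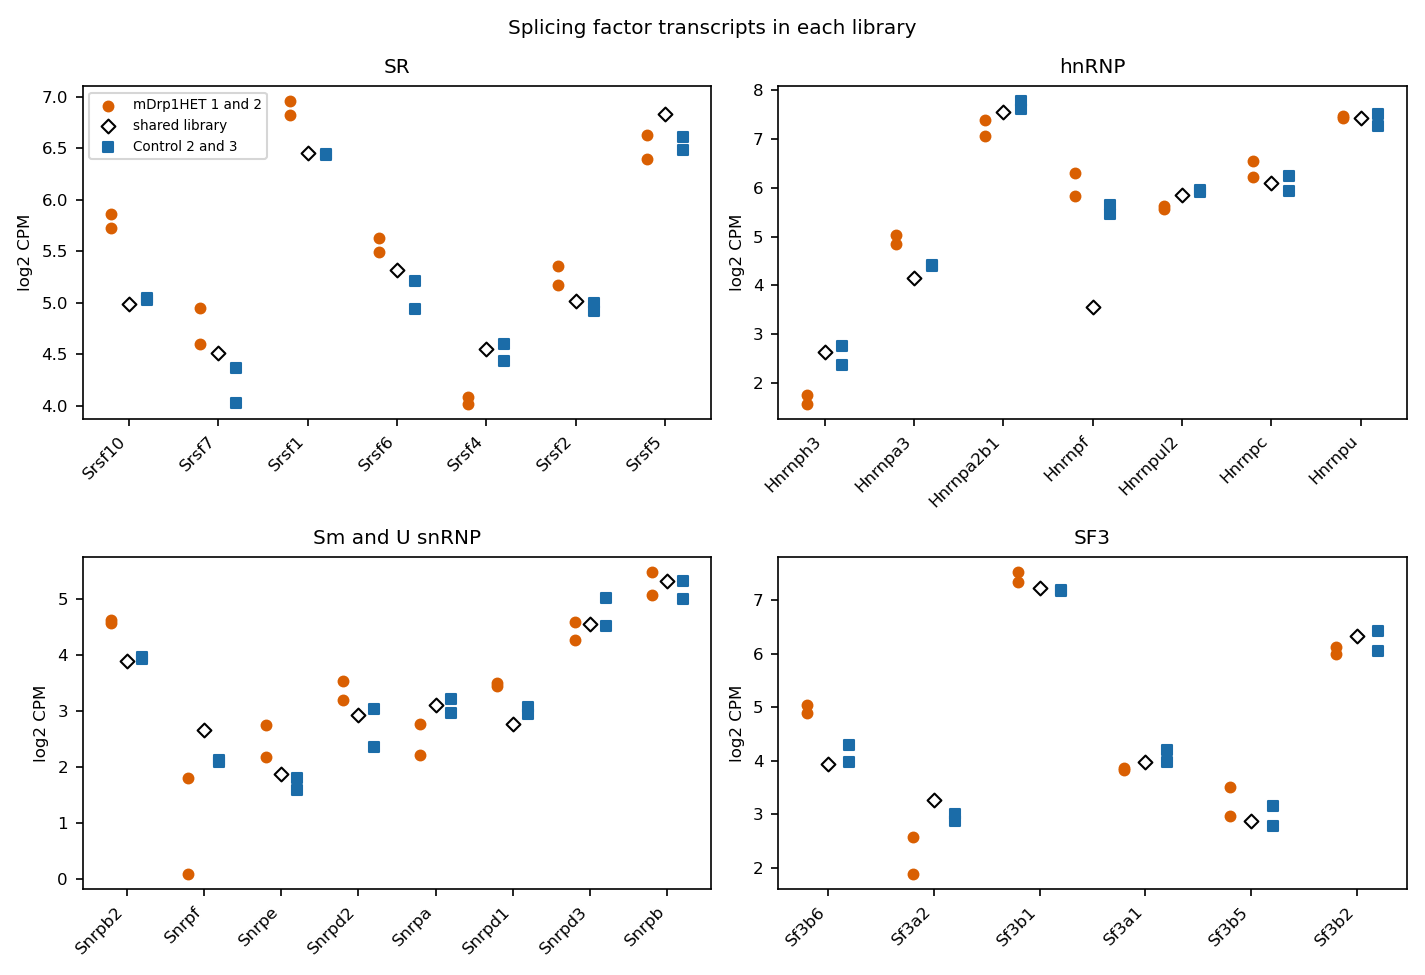
Log2 CPM of the named members of each family in every library: orange circles for mDrp1HET replicates 1 and 2, open diamonds for the shared library and blue squares for Control replicates 2 and 3. Srsf10, Snrpb2 and Sf3b6 have both circles above both squares with the diamond among or below the squares, and Hnrnph3 has both circles below both squares.

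Among hnRNP genes the leading member was Hnrnph3, which encodes a shorter relative of hnRNP H and F, proteins that bind runs of guanines (chromosome 10, 63014664 to 63024217). It had 1.75 and 1.58 log2 CPM in the mDrp1HET libraries, against 2.77 and 2.38 log2 CPM in the Control libraries and 2.63 in the shared one. Both mDrp1HET libraries were below all others, and the log2 fold change was −0.91 (SE 0.34, adjusted p = 0.238, limma). At 2.005 CPM per kb it was also the second lowest member per length, after Sf3b4 at 1.43 CPM per kb. The other genes of the H and F group had smaller values or values of the opposite sign. Hnrnph1 and Hnrnph2 had log2 fold changes of −0.06 and −0.21, while Hnrnpf had 5.84 and 6.29 log2 CPM in the mDrp1HET libraries, against 5.65 and 5.46 log2 CPM in the Control libraries. The Hnrnpf log2 fold change was 0.51 (SE 0.23, adjusted p = 0.306, limma), but the shared library stood at 3.55 log2 CPM, a difference of −1.91 from the lowest of the others. Counting the shared library as mDrp1HET turned the Hnrnpf value to −0.33.

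In the A and B group, Hnrnpa2b1 and Hnrnpa3 had differences of opposite sign. Hnrnpa2b1 encodes an abundant hnRNP that also sorts RNAs for transport, and at 107 CPM per kb it had the highest level per length of all 49 members. It had 7.39 and 7.06 log2 CPM in the mDrp1HET libraries, against 7.77 and 7.62 log2 CPM in the Control libraries and 7.56 in the shared one, and the groups did not overlap (log2 fold change −0.46, SE 0.21, adjusted p = 0.301, limma). Hnrnpa3, a close relative, had 4.86 and 5.04 log2 CPM in the mDrp1HET libraries, against 4.42 and 4.39 log2 CPM in the Control libraries and 4.15 in the shared one. For Hnrnpa3 the mDrp1HET libraries were the highest, with a log2 fold change of 0.54 (adjusted p = 0.281, SE 0.23, limma). Hnrnpab and Hnrnpa0 had log2 fold changes of −0.15 and −0.30 with no overlap between groups.

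Hnrnpa1, the classic antagonist of SR proteins, could not be measured cleanly. A pseudogene of it, Gm10052, is listed as a gene of its own, and the Hnrnpa1 share of their summed CPM was 28.3% and 80.8% in the mDrp1HET libraries, against 28.6% and 28.8% in the Control libraries and 7.95% in the shared one. The sum of both was 26.2 and 13.6 CPM in the mDrp1HET libraries, against 32.5 and 27.4 CPM in the Control libraries and 50.3 CPM in the shared one. Reads of near-identical copies may be divided between them by the counting, so the Hnrnpa1 log2 fold change of 0.08 (SE 0.31) is uncertain. Hnrnpk shares this limit, with the pseudogenes Gm4130 and Gm7964, and held 33.2% and 39.7% of the summed CPM in the mDrp1HET libraries, against 33.6% and 33.4% in the Control libraries.

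The hnRNP U protein binds RNA and the nuclear scaffold. Hnrnpul2 had 5.56 and 5.62 log2 CPM in the mDrp1HET libraries, against 5.92 and 5.95 log2 CPM in the Control libraries and 5.85 in the shared one, which lay with Control (log2 fold change −0.34, SE 0.21). In the authors' deposited table Hnrnpul2 had the lowest p-value of the members, 0.0698, and 0 of 49 were under 0.05 there, as were 0.085% of all genes. Hnrnpul1 had a log2 fold change of −0.23 with no overlap. Hnrnpu had 7.48 and 7.42 log2 CPM in the mDrp1HET libraries, against 7.51 and 7.27 in the Control libraries and 7.43 in the shared one. Its log2 fold change of 0.06 (SE 0.20) became −0.10 after median centring, and its 95% interval was −0.38 to 0.51. Hnrnpc, which binds uridine tracts and blocks cryptic exons, had 6.55 and 6.22 log2 CPM in the mDrp1HET libraries, against 6.23 and 5.93 log2 CPM in the Control libraries and 6.09 in the shared one. Those groups overlapped, with a log2 fold change of 0.31 (adjusted p = 0.509, SE 0.23, limma).

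The summed CPM of a family shows the reads it contributed, with no correction for transcript length. SR genes summed to 517 and 461 CPM in the mDrp1HET libraries, against 414 and 387 CPM in the Control libraries and 431 CPM in the shared one. The hnRNP genes summed to 1330 and 1242 CPM in the mDrp1HET libraries, against 1407 and 1288 CPM in the Control libraries and 1222 CPM in the shared one. The SR sums did not overlap between groups, and the hnRNP sums did. Among all genes taken singly, 38.6% had both mDrp1HET libraries above both Control libraries. The mean sum in mDrp1HET over that in Control was 1.22 for SR and 0.95 for hnRNP genes. For lists described below it was 1.20 for SR-related genes, 1.27 for muscle splicing regulators and 1.01 for Prp and core spliceosome genes. A higher sum was thus not particular to SR genes. The ratio of the SR sum to the hnRNP sum, a quantity chosen after the values were seen and so given with no test, was 0.389 and 0.371 in the mDrp1HET libraries, against 0.295 and 0.301 in the Control libraries and 0.353 in the shared one. It averaged 0.380 ± 0.013 in mDrp1HET and 0.298 ± 0.0043 in Control (SD, n = 2 each), a ratio of 1.28. The shared library lay between the groups. Within a library this ratio does not depend on scaling, so centring leaves it as it is. Without Srsf1 and Hnrnpa2b1 the ratio was 0.338 and 0.314 in the mDrp1HET libraries, against 0.275 in both Control libraries and 0.332 in the shared one, which then fell within the mDrp1HET range. The hnRNP sum includes Hnrnpa1 and Hnrnpk, which have listed pseudogenes, and Hnrnpf, which was low in the shared library. Without these genes the ratio was 0.425 and 0.413 in the mDrp1HET libraries, against 0.319 and 0.324 in the Control libraries and 0.369 in the shared one.

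**Figure D3:**
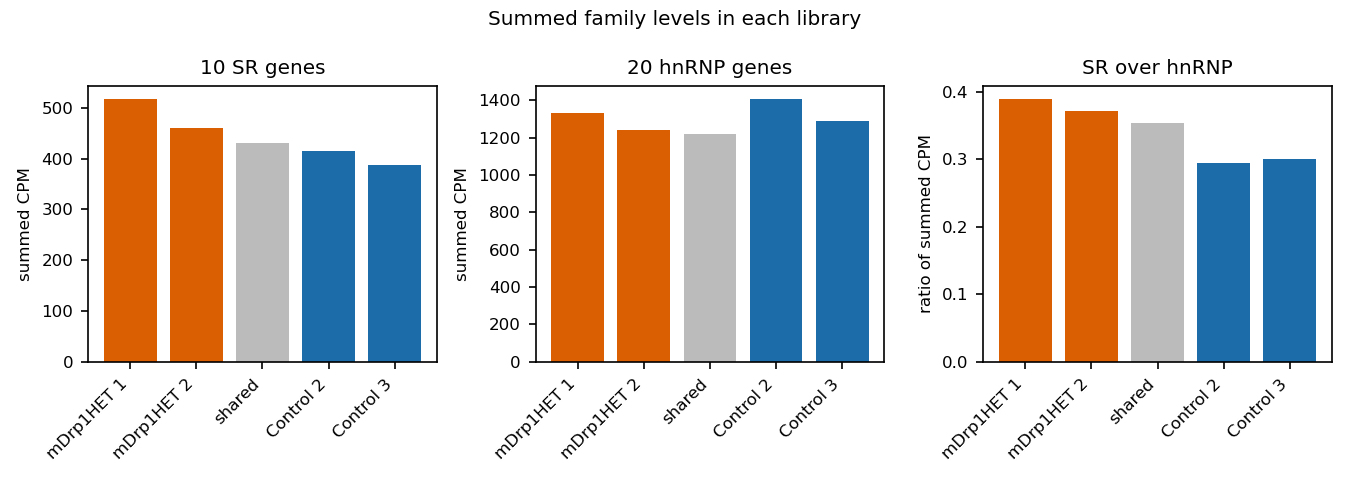
Summed CPM of the 10 SR genes, summed CPM of the 20 hnRNP genes and the ratio of the first to the second, as 1 bar per library from 0, for mDrp1HET replicates 1 and 2, the shared library and Control replicates 2 and 3. The ratio is 0.389 and 0.371 in mDrp1HET, 0.353 in the shared library, and 0.295 and 0.301 in Control.

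Marker sums of other cell types belong beside these values. In whole muscle, fewer cells of a type and less RNA per cell cannot be told apart. The 12 muscle markers summed to 134134 and 129791 CPM in the mDrp1HET libraries, against 173145 and 173682 CPM in the Control libraries and 183970 CPM in the shared one. The 10 fibro-adipogenic progenitor markers summed to 3775 and 4118 CPM in mDrp1HET, against 3217 and 2175 CPM in Control and 2488 CPM in the shared library, and the 9 measured macrophage markers to 416 and 371 CPM in mDrp1HET, against 322 and 196 CPM in Control and 249 CPM in the shared library. The 10 endothelial markers summed to 344 and 233 CPM in mDrp1HET, against 392 and 257 CPM in Control. Both mDrp1HET libraries stood above both Control libraries for 7 of 10 progenitor, 7 of 9 macrophage, 0 of 10 endothelial and 3 of 12 muscle markers (38.6% of all genes), and below them for 0 of 10, 0 of 9, 1 of 10 and 5 of 12 (11.3% of all genes). No measured marker was at 0 in any library, but this holds for every listed gene and so tells nothing about these cell types. The part of these markers in the splicing factor values was not tested.

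The Sm proteins form the ring that all spliceosomal U snRNPs but U6 share. Log2 fold changes within the ring had both signs. Snrpe had 2.76 and 2.18 log2 CPM in the mDrp1HET libraries, against 1.59 and 1.80 log2 CPM in the Control libraries and 1.88 in the shared one, a log2 fold change of 0.78 (SE 0.35). Snrpd2 had 3.54 and 3.19 log2 CPM in the mDrp1HET libraries, against 3.04 and 2.36 log2 CPM in the Control libraries and 2.94 in the shared one, a log2 fold change of 0.67 (SE 0.32). Snrpd1 had 3.50 and 3.44 log2 CPM in the mDrp1HET libraries, against 3.08 and 2.96 log2 CPM in the Control libraries and 2.77 in the shared one, a log2 fold change of 0.45 (SE 0.27). For these 3 genes both mDrp1HET libraries were above both Control libraries, and their adjusted p ran between 0.301 and 0.420 (limma, Benjamini-Hochberg).

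Snrpf, which encodes another ring protein, had 1.80 and 0.09 log2 CPM in the mDrp1HET libraries, against 2.09 and 2.14 log2 CPM in the Control libraries and 2.67 in the shared one. The spread within mDrp1HET exceeded the gap between mDrp1HET replicate 1 and Control. The low value rests on 11 reads, the fewest of any listed gene in mDrp1HET replicate 2. The log2 fold change was −1.17 (SE 0.51, adjusted p = 0.284, limma). When mDrp1HET replicate 1 was left out, Snrpf passed the threshold at −2.02 (adjusted p = 0.024, limma), with the low library alone in its arm. Snrpd3 and Snrpb, the genes of the family with the highest mean log2 CPM (not corrected for length), had overlapping groups. Snrpd3 had 4.60 and 4.27 log2 CPM in the mDrp1HET libraries, against 5.02 and 4.51 in the Control libraries and 4.55 in the shared one. Snrpb had 5.49 and 5.08 log2 CPM in the mDrp1HET libraries, against 5.33 and 5.01 in the Control libraries and 5.32 in the shared one. The Snrpb log2 fold change was 0.12, which became −0.05 after median centring.

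Of the proteins specific to U1 and U2, Snrpb2 gave the smallest p of the family. It encodes U2B″, which binds a stem-loop of U2 RNA (chromosome 2, 143063039 to 143072853). Snrpb2 had 4.57 and 4.63 log2 CPM in the mDrp1HET libraries, against 3.96 and 3.93 log2 CPM in the Control libraries and 3.89 in the shared one. The replicates lay close together and the groups were far apart by comparison, with a log2 fold change of 0.65 (adjusted p = 0.234, SE 0.24, limma). Snrpa, which encodes the A protein of U1, a paralog of U2B″, had a difference of the opposite sign. It had 2.21 and 2.77 log2 CPM in the mDrp1HET libraries, against 3.23 and 2.97 log2 CPM in the Control libraries and 3.11 in the shared one (log2 fold change −0.61, SE 0.32, adjusted p = 0.360, limma). Snrpa1, for the U2 protein that partners U2B″, and Snrpc, for the C protein of U1, had log2 fold changes of 0.12 and 0.01 with overlapping groups.

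Sf3b6 gave the largest positive fold change of all members. It encodes p14, the SF3b subunit that lies at the branch-site adenosine (chromosome 12, 4817544 to 4827659). It had 5.04 and 4.88 log2 CPM in the mDrp1HET libraries, against 4.29 and 3.98 log2 CPM in the Control libraries and 3.94 in the shared one. Both mDrp1HET libraries were above all others, with a fold of 1.77 (log2 0.82, SE 0.24, adjusted p = 0.169, limma). Sf3b1, the SF3b scaffold that holds the branch-site helix, had 7.53 and 7.34 log2 CPM in the mDrp1HET libraries, against 7.19 and 7.17 log2 CPM in the Control libraries and 7.23 in the shared one. Its groups did not overlap either, at a smaller log2 fold change of 0.26 (SE 0.20, adjusted p = 0.538, limma). Sf3b2, which encodes the partner of the SF3b4 protein, had 6.13 and 5.99 log2 CPM in the mDrp1HET libraries, against 6.42 and 6.05 in the Control libraries and 6.33 in the shared one. Sf3b5, for a small SF3b subunit, had 3.50 and 2.96 log2 CPM in the mDrp1HET libraries, against 3.15 and 2.78 in the Control libraries and 2.87 in the shared one. Both genes had overlapping groups, with log2 fold changes of −0.18 and 0.27.

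The SF3a subunits join SF3b to the U2 snRNP. Sf3a2 had 1.88 and 2.58 log2 CPM in the mDrp1HET libraries, against 3.01 and 2.88 log2 CPM in the Control libraries and 3.27 in the shared one. Sf3a1 had 3.83 and 3.87 log2 CPM in the mDrp1HET libraries, against 4.20 and 3.98 log2 CPM in the Control libraries and 3.98 in the shared one. Both had the mDrp1HET libraries below the Control libraries, with log2 fold changes of −0.72 (SE 0.34) and −0.24 (SE 0.25). Sf3a3, Sf3b3 and Sf3b4 had log2 fold changes between 0.00 and 0.08 and overlapping groups.

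The shared library sat nearer the Control mean than the mDrp1HET mean for 33 of 49 members (67.3%), against 73.2% of all genes. It lay outside the range of the other 4 libraries for 16 members (32.7%, as for all genes at 32.7%), above them for 4 (8.16%, against 7.03% of all genes) and below them for 12 (24.5%, against 25.6%). Hnrnpf was the most distant of these. With the shared library counted in Control only, 8 members were higher (16.3%, against 19.9% of all genes) and 6 lower (12.2%, against 4.22%) at an unadjusted p under 0.05. With it in mDrp1HET only, 0 were higher and 0 lower, where 2.78% and 1.04% of all genes were. The 0 of 49 past the adjusted threshold held in both cases.

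Members with GC-poor transcripts tended to have larger fold changes, as did genes in general. Across the 49 members the Spearman correlation of log2 fold change with transcript GC content was −0.32, against −0.37 across 11607 listed genes matched to GENCODE, values that are across genes sharing the same libraries. At or below the members' median GC of 46.6%, the 25 members had a median log2 fold change of 0.17, and the 24 above it −0.07. The median GC was 47.9% for SR, 45.9% for hnRNP, 49.6% for Sm and U snRNP and 48.99% for SF3 genes, against 50.6% for listed genes, so the hnRNP family had both the lowest median GC and the lowest median fold change, while SR genes were lower in GC and higher in fold change than the 2 remaining families. With each library's GC trend removed, the SR median was 0.33 and the hnRNP median −0.13.

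**Figure D4:**
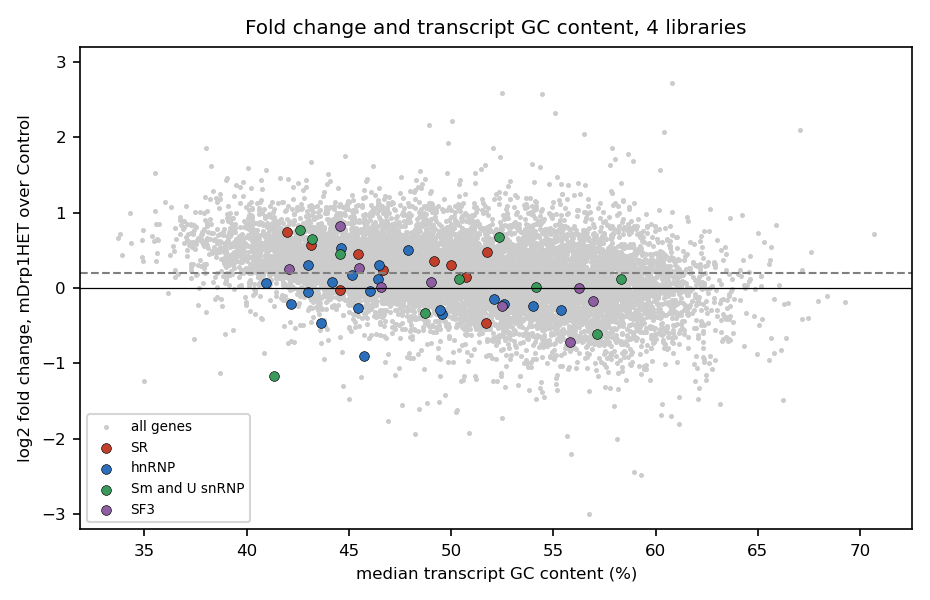
Log2 fold change, mDrp1HET over Control in the 4-library comparison, against the median GC content (%) of each gene's transcripts, with all genes in grey and the 49 members coloured by family. Fold changes tend to be lower at high GC (Spearman −0.37 for all genes and −0.32 for members).

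Transcripts annotated as targets of nonsense-mediated decay were most frequent among SR genes. In GENCODE vM21, 9 of 10 SR genes (90.0%) have at least 1 such transcript, against 10 of 20 hnRNP, 4 of 10 Sm and U snRNP and 1 of 9 SF3 genes, and 27.7% of listed genes. A transcript with a retained intron is annotated for 37 members (75.5%), against 57.8% of listed genes. The table gives 1 value per gene, so productive and unproductive transcripts of a gene were not separated.

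Other genes of the pathway were taken from lists chosen with earlier results of these data known. In the 8 splicing lists that follow, limma on the deposited values called 1 gene in the 4-library comparison, Nova1, and limma voom on recovered reads called the same 1. By limma on the deposited values, 0.187% of all genes passed in that comparison. Beside the counts at an unadjusted p under 0.05 given for these lists stand 13.3% of all genes higher and 3.26% lower in mDrp1HET, and the all-gene median log2 fold change of 0.20. None of the 17 measured snRNP proteins outside the 4 families passed (3 higher and 0 lower at an unadjusted p under 0.05, median log2 fold change 0.10). Snrnp27, a protein of the U4/U6.U5 tri-snRNP, had 5.77 and 5.63 log2 CPM in the mDrp1HET libraries, against 5.19 and 4.91 log2 CPM in the Control libraries and 4.94 in the shared one. Snrnp200, the helicase that unwinds U4 from U6, had 6.34 and 6.46 log2 CPM in the mDrp1HET libraries, against 6.81 and 6.87 log2 CPM in the Control libraries and 6.86 in the shared one. Neither pair of groups overlapped, and the values differed in opposite directions. Of 14 measured genes for snRNP assembly 0 passed (1 higher and 0 lower at an unadjusted p under 0.05, median 0.31), led by Coil, the Cajal body scaffold, at 1.95 and 1.75 log2 CPM in the mDrp1HET libraries, against 0.75 and 0.17 log2 CPM in the Control libraries and 1.01 in the shared one. Its value in Control replicate 3 was near the lowest listed there, 0.07 log2 CPM, where the fewest reads of a gene were 26. Of 8 Lsm genes 0 passed, with 0 and 0 at the unadjusted level and a median of 0.24.

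Of 15 U2AF and branch-site genes outside SF3 and 33 Prp and core spliceosome genes 0 passed, with medians of −0.10 and −0.03 and 0 and 1 higher, and 0 and 1 lower, at an unadjusted p under 0.05. The Prp gene with the smallest p was Ddx23, the tri-snRNP helicase Prp28, at 5.35 and 5.46 log2 CPM in the mDrp1HET libraries, against 6.18 and 6.07 log2 CPM in the Control libraries and 6.16 in the shared one (log2 fold change −0.72, SE 0.21, adjusted p = 0.169, limma). Its shared library lay with Control.

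SR proteins are switched by phosphorylation of their arginine and serine domains, so their kinases were examined too. Of 10 SR protein kinases 0 passed (1 higher and 1 lower at an unadjusted p under 0.05, median 0.14). Clk1 had 6.65 and 6.49 log2 CPM in the mDrp1HET libraries, against 6.15 and 6.01 log2 CPM in the Control libraries and 6.11 in the shared one, with no overlap (log2 fold change 0.49, SE 0.21). Dyrk1b, a muscle-enriched kinase of the same wider group, had 2.61 and 4.06 log2 CPM in the mDrp1HET libraries, which were far apart, against 4.48 and 4.33 log2 CPM in the Control libraries and 4.36 in the shared one. Of 22 SR-related genes 0 passed (3 higher and 1 lower at an unadjusted p under 0.05, median 0.17). The leading one was Bclaf1, for a protein with an arginine and serine domain, at 7.84 and 7.58 log2 CPM in the mDrp1HET libraries, against 7.01 and 7.05 log2 CPM in the Control libraries and 7.35 in the shared one (log2 fold change 0.69, SE 0.20, adjusted p = 0.172, limma).

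Among 30 measured regulators of splicing known from muscle, 1 passed in the 4-library comparison (0.187% of all genes did). In the labelled comparison 0 passed (0.0% of all genes). In the 4-library comparison 6 were higher and 0 lower at an unadjusted p under 0.05, with a median of 0.23. The 1 that passed was Nova1, an RNA-binding protein best known from neurons. Nova1 had 4.83 and 4.92 log2 CPM in the mDrp1HET libraries, against 3.23 and 3.33 log2 CPM in the Control libraries and 3.69 in the shared one. It rose in mDrp1HET by 1.60 on the log2 scale in the 4-library comparison (SE 0.25, adjusted p = 0.0404, limma with Benjamini-Hochberg adjustment), and by 1.06 in the labelled one without passing (adjusted p = 0.753, limma). The call was lost after median centring (adjusted p = 0.134), after quantile normalization (0.192), without the trend (0.181), with the GC trend removed (0.0800) and with the shared library in either group alone (0.0636 in Control, 0.970 in mDrp1HET), at log2 fold changes between 1.20 and 1.60. Mbnl1, which drives the adult splicing pattern of muscle, had 10.48 and 10.20 log2 CPM in the mDrp1HET libraries, against 9.67 in both Control libraries and 9.66 in the shared one (log2 fold change 0.67, SE 0.21, adjusted p = 0.194, limma).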

How the data were processed

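Quadriceps RNA with an integrity number above 7 was depleted of ribosomal RNA and made into TruSeq stranded total RNA libraries, sequenced on an Illumina HiSeq in 2 pools that the labels do not assign to libraries, per the labels' protocols. The authors deposited 1 table of log2 CPM with 6 library columns, and 1 column of p-values, per the file headers. The linear values sum to the same total in every column, and no listed value is at or below 0 log2 CPM. FastQC, DESeq2 1.30.0 and the build GRCm38 are named in the submitters' processing notes, while aligner and counter are not given in the sources used here. On the linear scale, each value less a constant fitted per column was a whole multiple of 1 read (100% of values, tolerance 0.01), which gave the read totals. By Entrez number, 17 date-like symbols were repaired, and 68 genes had no symbol.

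The deposited log2 CPM of all 11768 genes were fitted by limma 3.58.1 (R 4.3.3) with its trend option, two-sided, with Benjamini-Hochberg adjustment over all genes and a threshold of 0.05. The fit was tested on simulated data. No pseudocount was added and no gene was filtered. Values in every library are given for the 6 members with the smallest p and the 2 with the highest mean in each family, and for up to 4 genes of each list. The members and lists were chosen with earlier results of these data known. Levels per kb use the median length of protein-coding transcripts in GENCODE vM21, which matched 98.6% of genes. Alternatives were median centring, quantile normalization, an offset of 1 CPM, a mean of at least 3 log2 CPM, no trend, voom on recovered reads, removal of the GC trend (loess, span 0.3), leaving out each library, and the shared library in 1 group.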

Additional observations from a re-analysis of the deposited data

How the results depend on the processing

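The count of members past the threshold stayed at 0 under every alternative run in both comparisons except 1: leaving out 1 library of the 4 gave 0 to 1, the 1 being Snrpf without mDrp1HET replicate 1. Leaving out a library of the 4 leaves 1 in that arm, which is assumed to vary like the other group. No paired analysis was possible because the labels give no replicate numbers shared between groups. In all genes, 22 passed in the 4-library comparison, 0 after median centring, 1 after quantile normalization, 0 without the trend, 51 with voom, 2 with the shared library in either group alone, and 77 to 325 with 1 library left out.

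In the 4-library comparison, median centring, quantile normalization and leaving out 1 library moved the SR median to 0.17, to 0.13 and to between 0.23 and 0.46, the hnRNP median to −0.27, to −0.24 and to between −0.16 and 0.032, the Sm and U snRNP median to −0.047, to −0.051 and to between −0.015 and 0.31, and the SF3 median to −0.16, to −0.17 and to between −0.13 and 0.21. The hnRNP median was above 0 without mDrp1HET replicate 2. With the shared library in mDrp1HET only, the SR median was 0.27 and the hnRNP median −0.16; with a mean of at least 3 log2 CPM the hnRNP median was −0.047. The SR median minus the hnRNP median was 0.44, and 0.37 with quantile normalization and 0.36 with that minimum mean. In the labelled comparison the hnRNP median was −0.18 after centring, −0.16 after quantile normalization and −0.16 to −0.036 with 1 column left out, and the SF3 median −0.10, −0.11 and −0.027 to 0.15.

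Among named members 27 values changed sign and 690 kept their sign and their side of the threshold. In the 4-library comparison Srsf5 was 0.073 and Hnrnpf −0.33 with the shared library in mDrp1HET only; Hnrnpu was −0.10 after centring, −0.066 after quantile normalization and −0.17 with the GC trend removed, and Snrpb −0.051 and −0.043 after the first 2. In the labelled comparison Hnrnpu was −0.070, −0.045 and −0.12 and Snrpb −0.034 and −0.028. With 1 library left out, the ranges that crossed 0 were −0.15 to 0.082 for Srsf5, −0.056 to 0.18 for Hnrnpu, −0.087 to 0.32 for Snrpb, −0.0052 to 0.54 for Sf3b5 and −0.36 to 0.0058 for Sf3b2 in the 4-library comparison, and −0.13 to 0.088 for Srsf5, −0.33 to 1.17 for Hnrnpf, −0.025 to 0.092 for Hnrnpu, −0.028 to 0.18 for Snrpb and −0.019 to 0.30 for Sf3b5 in the labelled one. The cause was not tested.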

Other observations

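Of 11 nuclear and abundant noncoding RNAs measured, 2 passed in the 4-library comparison, both higher in mDrp1HET (0.144% of all genes passed as higher). Rn7sk, the 7SK RNA to which several hnRNP proteins bind, had 13.77 and 14.22 log2 CPM in the mDrp1HET libraries, against 12.51 and 12.03 log2 CPM in the Control libraries and 10.95 in the shared one. It rose in mDrp1HET by 1.72 on the log2 scale in the 4-library comparison (SE 0.29, adjusted p = 0.0463, limma with Benjamini-Hochberg adjustment). Rpph1, the RNA of RNase P, had 10.97 and 10.98 log2 CPM in the mDrp1HET libraries, against 8.85 and 8.91 log2 CPM in the Control libraries and 9.62 in the shared one, and rose by 2.10 (SE 0.20, adjusted p = 0.00496, limma). In the labelled comparison neither passed (adjusted p = 0.753 for both, limma). Median centring (adjusted p = 0.178 for Rn7sk and 0.134 for Rpph1) and a fit without the trend (0.181 and 0.138) lost both calls, as did the shared library in Control only (0.0778 and 0.0636) or in mDrp1HET only (0.970 and 0.409). For Rn7sk, quantile normalization (0.192) and leaving out Control replicate 3 (0.133) lost it too. Both mDrp1HET libraries were above both Control libraries for 7 of the 11 (38.6% of all genes) and below them for 0 (11.3% of all genes). Of the other 9, groups overlapped for Snhg12, Malat1, Neat1 and Rn45s, the 45S ribosomal RNA precursor. Rn45s had 13.96 and 16.34 log2 CPM in the mDrp1HET libraries, against 15.66 and 15.86 log2 CPM in the Control libraries and 15.86 in the shared one (log2 fold change −0.61, SE 0.59), so mDrp1HET replicate 1 stood apart.

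Within groups, mDrp1HET replicate 1 was above mDrp1HET replicate 2 for 34 of 49 members (71.6% of all genes) and Control replicate 2 above Control replicate 3 for 42 of 49 (74.8% of all genes).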
